A study of Mus musculus with 37 samples.

Results

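The 10 genes described here encode proteins of the cardiac muscle cell, measured in RNA of whole mouse lung during late gestation and birth. They were chosen by name (Actc1, Myh6, Myl7, Myl4, Tnni3, Tnnt2, Tnnc1, Nppa, Ryr2 and Actn2), and each was read by the 1 probe set that carries its symbol alone, among 19938 genes with such a probe set. The lungs came from C57BL/6J (B6) mice taken daily between E15.5 and E18.5 (embryonic days) and on the day of birth (PN0), and from A/J mice at those ages and also at E19.5 and E20.5. Both are untreated inbred strains. Each of the 12 groups held 3 replicates, a replicate being the right lungs of 3 males of a litter pooled, so no value belongs to a single animal. A/J pups are born about a day later than B6 pups, and A/J PN0 lungs were taken within hours of E20.5, so PN0 does not set equal ages of the strains side by side. Values were log2 units of the array after RMA normalization, in which a difference of 1 is 2-fold. Because whole lung was sampled, more cells of a type and more RNA per cell cannot be told apart.

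In mice, cardiac muscle is not limited to the heart: a sleeve of cardiomyocytes with atrial features runs along the pulmonary veins into the lung. Its contraction uses the same apparatus as the atrium, in which myosin pulls on actin under the control of calcium and troponin. The gene set holds the motor and its light chains (Myh6, Myl7, Myl4), the thin filament (Actc1, Tnnt2, Tnni3, Tnnc1), the Z disc crosslinker Actn2, the calcium release channel Ryr2 and the hormone precursor Nppa. Myl7, Myl4 and Nppa are atrial genes in the newborn mouse, whereas Myl2, Myl3 and Myh7 mark ventricular muscle. Whether these genes are limited in the same way at E15.5 was not tested.

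Promoters of 3 genes are shown: Actc1 and Myl7, which rose with age, and Nppa, for which no rise was established. Sequences are from RefSeq on GRCm38.p6, the 250 bases before the gene's start, 5′ to 3′ on the gene's strand. The capitals mark a CArG box (the binding motif of serum response factor) in Actc1 and Myl7, and TATAAA in Nppa.
Actc1 (chr2:114052876-114053125, minus strand): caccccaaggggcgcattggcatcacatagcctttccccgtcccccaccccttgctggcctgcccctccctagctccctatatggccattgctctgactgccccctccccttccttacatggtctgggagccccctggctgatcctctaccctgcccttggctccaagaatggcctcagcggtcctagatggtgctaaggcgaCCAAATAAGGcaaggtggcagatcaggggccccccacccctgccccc
Myl7 (chr11:5898783-5899032, minus strand): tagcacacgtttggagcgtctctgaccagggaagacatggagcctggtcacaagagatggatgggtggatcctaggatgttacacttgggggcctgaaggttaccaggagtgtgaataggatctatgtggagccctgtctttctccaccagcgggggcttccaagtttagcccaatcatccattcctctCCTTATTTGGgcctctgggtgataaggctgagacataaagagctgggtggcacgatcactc
Nppa (chr4:148000472-148000721, plus strand): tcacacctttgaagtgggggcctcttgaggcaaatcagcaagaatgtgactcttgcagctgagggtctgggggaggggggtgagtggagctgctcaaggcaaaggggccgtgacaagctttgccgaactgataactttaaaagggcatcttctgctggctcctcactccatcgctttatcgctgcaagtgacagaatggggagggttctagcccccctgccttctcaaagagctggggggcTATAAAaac
All 10 genes matched the table, with 11 promoters in all. Motifs were searched on both strands of these 250 bases. A CArG box was found in the promoters of 2 of the 10, Actc1 and Myl7, and in 1.47% of all 32851 promoters of the same length. These 2 are the ones shown, and the other genes that rose with age held none in this window. Any link of the motifs to the changes with age was not tested. TATAAA was found in 1 of the 10, Nppa, and in 12.4% of all promoters. The letters AAGTG, the core bound by NKX2-5, were found in 4 of the 10 (Myh6, Myl7, Myl4 and Nppa) and in 40.7% of all promoters, and a MEF2 site was in none of the 10 and in 2.92% of all promoters. Myl7 thus held both a CArG box and AAGTG, and Nppa held AAGTG and TATAAA without a CArG box in this window.

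The arrays had medians between 6.34 and 6.54 over 35556 probe sets. Lung markers were high throughout: Nkx2-1, the transcription factor of lung epithelium, lay between 9.16 and 9.96 and Sftpc, a surfactant protein, between 12.36 and 14 in the 36 replicates. Replicate 1 of E15.5 stood apart from its group in both strains in the cardiac muscle genes, as described below, so each comparison was also run without these 2 replicates, an alternative chosen after seeing the data.

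Of the 10 genes, 9 were higher at PN0 than at E15.5 in each strain. In B6, 9 rose and none fell by limma (adjusted p under 0.05, Benjamini-Hochberg over all 21789 probe sets tested), where 24.4% of all probe sets rose. In A/J, 9 rose and none fell, where 25.2% of all probe sets rose. The median change of the 10 genes was 1.15 in B6 and 1.11 in A/J on the log2 scale, against -0.0033 and -0.0367 over all probe sets tested. Nppa was the exception, called neither higher nor lower in either strain.

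**Figure D1:**
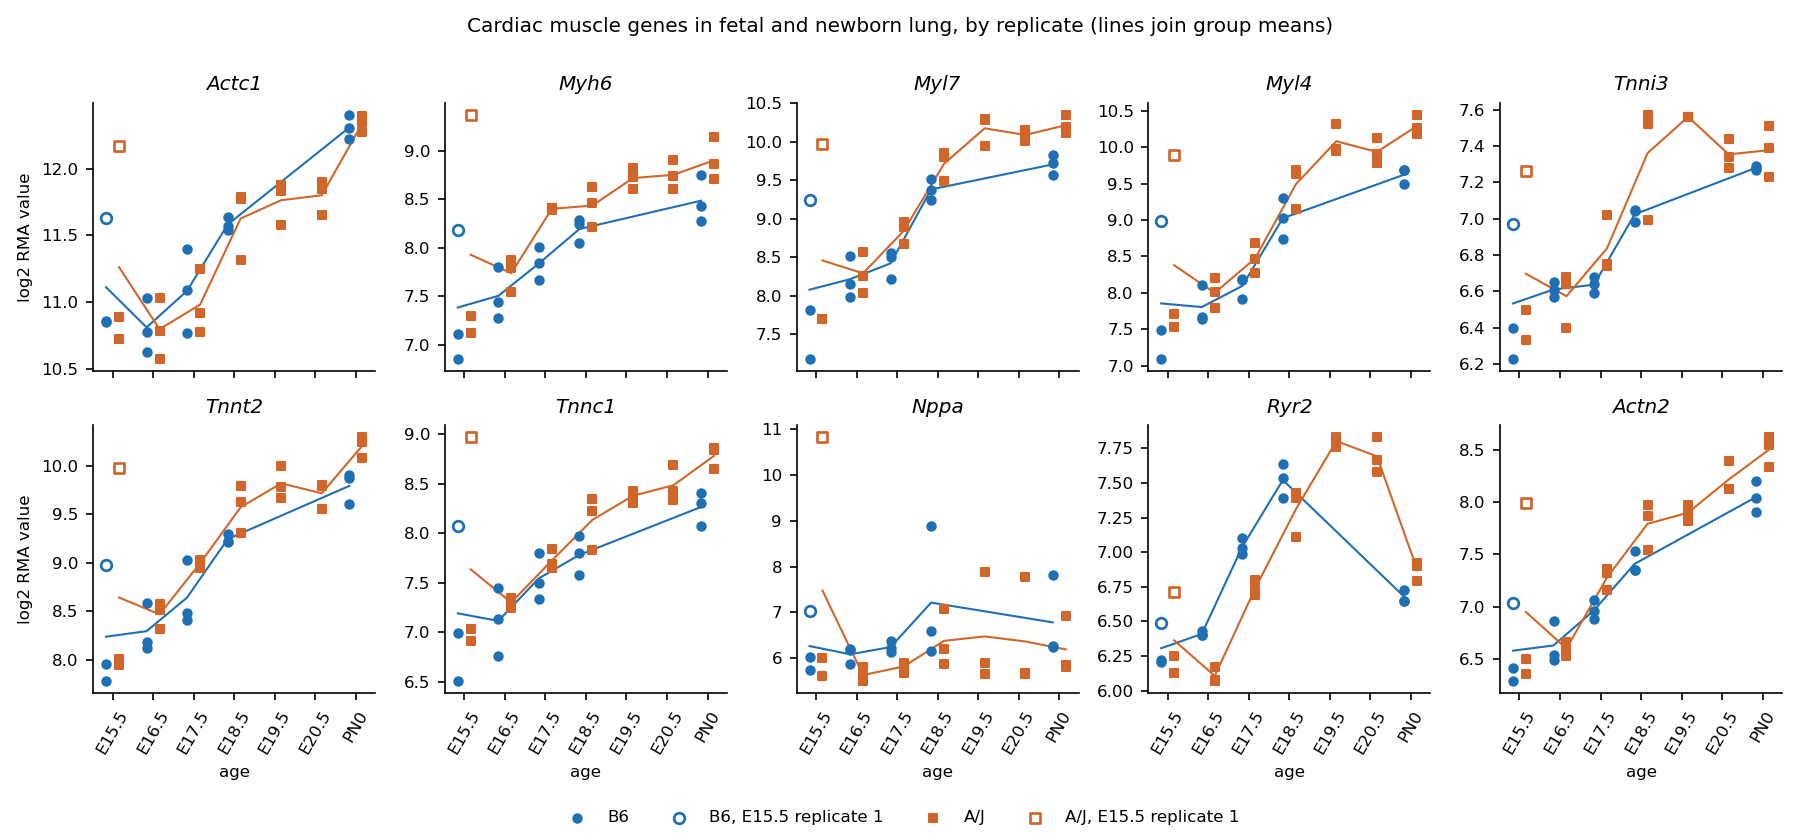
Log2 RMA value of each cardiac muscle gene (y axes, a scale of its own per gene) against age, with B6 as blue circles and A/J as orange squares, 1 point per replicate and lines through the group means. Group means of all genes but Nppa are higher at PN0 than at E15.5 in both strains, and that of Nppa in B6 alone. The open symbols, replicate 1 of E15.5, lie above the other 2 replicates of their group.

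Myl7, the atrial regulatory light chain, was among the genes with the largest rise. Its values were 9.72, 9.57 and 9.83 in B6 at PN0, against 9.24, 7.81 and 7.18 in B6 at E15.5. In A/J they were 10.11, 10.35 and 10.19 at PN0, against 9.97, 7.7 and 7.7 at E15.5. The ages did not overlap in either strain, and the first E15.5 value of each strain lay far above the other 2. The change was 1.63 ± 0.38 in B6 and 1.76 ± 0.38 in A/J (SE; adjusted p = 0.00045 and 0.00018, limma). Myl4, the atrial essential light chain, rose by 1.77 ± 0.38 in B6 and by 1.91 ± 0.38 in A/J (SE; adjusted p = 0.00017 and 5.9e-05, limma). Its 3 values were 9.68, 9.50 and 9.69 in B6 at PN0, against 8.98, 7.49 and 7.10 in B6 at E15.5. Myh6, the fast cardiac myosin heavy chain of the motor, rose by 1.1 ± 0.33 in B6 and 0.97 ± 0.33 in A/J (SE; adjusted p = 0.0053 and 0.013, limma). The A/J call was lost without A/J E15.5 replicate 2 (0.57, adjusted p = 0.17), A/J E15.5 replicate 3 (0.66, adjusted p = 0.13) or A/J PN0 replicate 1 (0.86, adjusted p = 0.058), with only the groups compared (adjusted p = 0.13) and with array weights (adjusted p = 0.069, limma). The B6 call was lost without B6 E15.5 replicate 3 (0.84, adjusted p = 0.053, limma). Myh6 rose by 1.5 ± 0.15 in B6 without both E15.5 replicates numbered 1, and by 1.69 ± 0.15 in A/J (SE). In A/J the 2 ages of Myh6 overlapped, with 9.14, 8.86 and 8.71 at PN0, against 9.37, 7.12 and 7.30 at E15.5.

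The thin filament genes rose too. Actc1, cardiac alpha actin, which is also made by other immature muscle, read 12.22, 12.30 and 12.40 in B6 at PN0, against 11.63, 10.86 and 10.85 in B6 at E15.5. In A/J, Actc1 read 12.27, 12.39 and 12.35 at PN0, against 12.17, 10.89 and 10.73 at E15.5. The groups did not overlap, and the changes were 1.19 ± 0.23 in B6 and 1.07 ± 0.23 in A/J (SE; adjusted p = 6.1e-05 and 0.00024, limma). Tnnt2, the troponin that ties the complex to tropomyosin, rose by 1.55 ± 0.31 in B6 and 1.56 ± 0.31 in A/J. Tnnc1, the calcium sensor of slow and cardiac muscle, rose by 1.07 ± 0.33 in B6 and 1.15 ± 0.33 in A/J, and its call was lost without B6 E15.5 replicate 3 in B6 (0.73, adjusted p = 0.080, limma) and without A/J E15.5 replicate 2 (0.78, adjusted p = 0.056, limma) or with only the groups compared (adjusted p = 0.059, limma) in A/J. Tnni3, the cardiac inhibitory troponin, had the smallest rise of the 4, 0.75 ± 0.17 in B6 and 0.68 ± 0.17 in A/J. Actn2, which crosslinks actin at the Z disc, read 8.04, 7.91 and 8.20 in B6 at PN0, against 7.04, 6.29 and 6.41 in B6 at E15.5. Its rise was 1.47 ± 0.23 in B6 and 1.55 ± 0.23 in A/J (SE; adjusted p = 2.3e-06 and 9.3e-07, limma).

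Over the whole set, replicates at PN0 and E15.5 did not overlap in 8 of 10 genes in B6 and in 6 of 10 in A/J, all higher at PN0, where 27.8% and 27% of all probe sets did so. Without both E15.5 replicates numbered 1, the same comparison gave 9 higher and none lower in each strain, where 22.3% of all probe sets rose in B6 and 24.1% in A/J. The median change was then 1.51 in B6 and 1.75 in A/J. Myl7 then rose by 2.21 ± 0.17 in B6 and 2.52 ± 0.17 in A/J (SE). The plot of changes with and without these replicates shows the same for the other genes: estimates moved up and their standard errors shrank. This direction was fixed in advance, since replicate 1 held the highest E15.5 value of its group in each of the 10 genes. The fit without these replicates, here and for the slopes below, is thus no separate support for a rise.

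**Figure D2:**
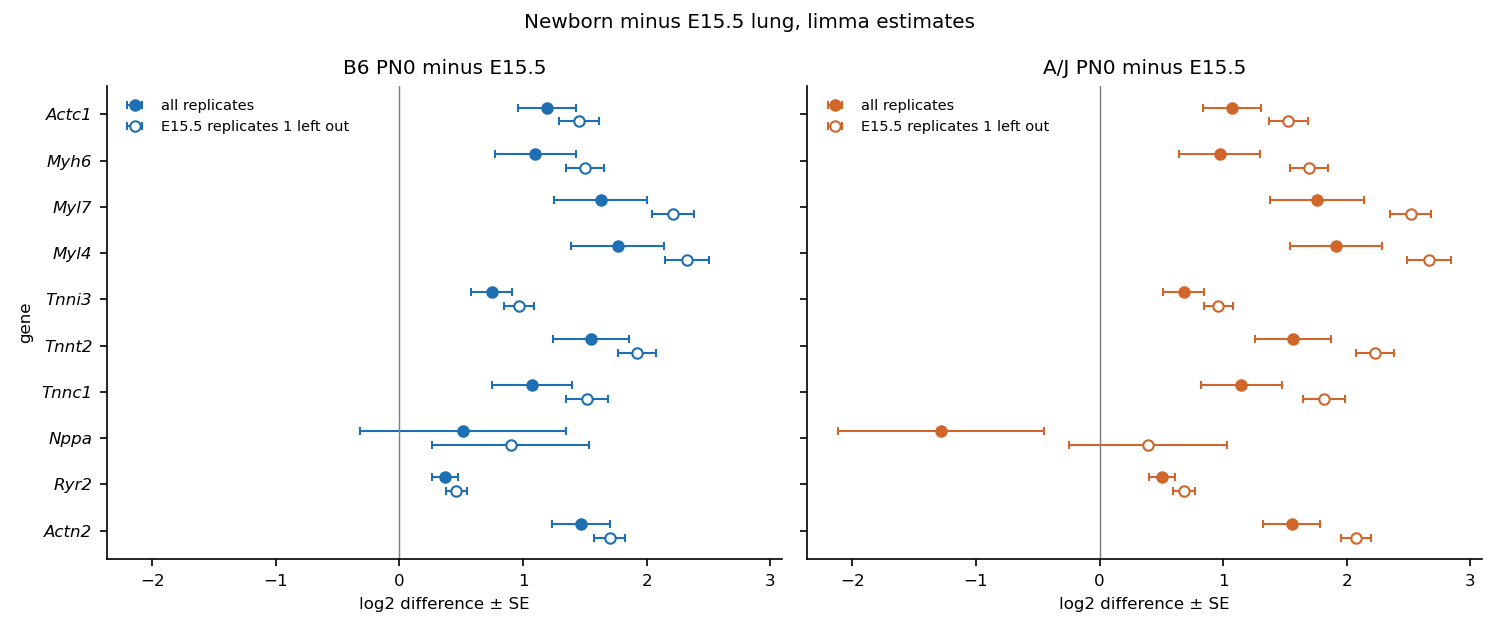
Log2 difference of PN0 minus E15.5 with its standard error (x axis) for the 10 genes (rows) in B6 (left) and A/J (right), from all replicates (filled) and without replicate 1 of E15.5 in both strains (open). All genes but Nppa lie right of 0 in both panels, and Nppa lies left of 0 only in A/J with all replicates, at -1.28. The open points lie further right with shorter bars, Myl7 at 2.21 in B6 and 2.52 in A/J.

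The levels before birth are given by day. The mean of the 9 genes without Nppa ran, as the range of 3 replicates at each age, from 7.24 to 8.40 at E15.5, 7.54 to 7.93 at E16.5, 7.89 to 8.18 at E17.5, 8.51 to 8.64 at E18.5 and 8.81 to 9.01 at PN0 in B6. In A/J it ran from 7.46 to 9.14 at E15.5, 7.63 to 7.89 at E16.5, 8.18 to 8.36 at E17.5, 8.55 to 9.0 at E18.5, 9.05 to 9.22 at E19.5, 9.0 to 9.19 at E20.5 and 9.20 to 9.33 at PN0. Without replicate 1, E15.5 spanned 7.24 to 7.46 in B6 and 7.46 to 7.50 in A/J, below every later replicate of the strain. With all replicates, the A/J group means at E16.5 were below those at E15.5 in all 10 genes (Actc1 averaged 10.80 at E16.5, against 11.26 at E15.5). The prenatal slope was fitted over E15.5 to E18.5 in B6 and over E15.5 to E20.5 in A/J. Slopes and counts of the strains thus cover unlike spans and do not compare the strains. Prenatal slopes were called upward for 7 genes in B6 and 9 in A/J by limma, where 23.2% and 30.9% of all probe sets had a rising slope. The median slope of the 10 genes was 0.29 per day in B6 and 0.26 per day in A/J on the log2 scale, against 0.0042 and 0.010 over all probe sets. In B6, Actc1 (0.17 ± 0.074 per day, SE, adjusted p = 0.063, limma) and Tnnc1 (0.22 ± 0.10, adjusted p = 0.081, limma) did not pass, and leaving out B6 E15.5 replicate 3 brought the count to 3. Without both E15.5 replicates numbered 1, 9 slopes were upward in B6 and 9 in A/J, where 20.8% and 29.8% of all probe sets rose. No slope over E15.5 to E18.5 differed between the strains in limma's test of the difference, where 6.8% of all probe sets did. At an unadjusted p under 0.05 none of the 10 genes passed that test either.

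The F test for any change over age, which also asked for a 2-fold range of group means and an adjusted p below 0.01, called 6 of the 10 genes in B6 and 7 in A/J (limma), where 14.4% and 17.8% of all probe sets were called. Not called were Myh6, Tnni3, Tnnc1 and Nppa in B6, and Myh6, Tnni3 and Nppa in A/J. Tnni3 missed only the 2-fold range, at 0.75 in B6 and 0.99 in A/J on the log2 scale. Without both E15.5 replicates numbered 1, the counts were 8 and 9.

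Ryr2, the channel that releases calcium from the sarcoplasmic reticulum, took a course of its own around birth. In B6 it read 6.49, 6.22 and 6.21 at E15.5, 7.39, 7.54 and 7.64 at E18.5 and 6.73, 6.65 and 6.65 at PN0. In A/J it read 6.71, 6.25 and 6.13 at E15.5, 7.83, 7.82 and 7.76 at E19.5, 7.58, 7.67 and 7.83 at E20.5 and 6.92, 6.90 and 6.79 at PN0. It thus climbed before birth, with slopes of 0.43 ± 0.033 per day in B6 and 0.35 ± 0.018 in A/J (SE; adjusted p = 1.7e-12 and 1.5e-17, limma), and was lower after birth without overlap, as were 18% of all probe sets in B6 and 15.3% in A/J. PN0 minus E18.5 in B6 was -0.85 ± 0.10, and PN0 minus E20.5 in A/J was -0.82 ± 0.10 (SE; adjusted p = 2.9e-07 and 8.4e-07, limma). Since the A/J interval was hours and the B6 interval a day, these 2 steps were not compared with each other. Of 21 genes of cardiac calcium handling, channels and metabolism, 3 were lower and none higher across birth in B6. Of all probe sets, 14.4% and 12.5% were. In A/J, 3 were lower and 1 higher, where 8.09% and 12% of all probe sets were (limma).

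The contractile genes did not follow Ryr2 across birth. In B6, 2 genes were higher at PN0 than at E18.5 and 1 was lower, where 12.5% and 14.4% of all probe sets were called. Actc1 rose by 0.73 ± 0.23 and Actn2 by 0.64 ± 0.23 (SE; adjusted p = 0.020 and 0.039, limma), and Ryr2 fell. The Actc1 call was lost without B6 E18.5 replicate 3, B6 PN0 replicate 2 or B6 PN0 replicate 3 (adjusted p = 0.055, 0.0504 and 0.067, limma). The Actn2 call was lost without any 1 of the 6 B6 replicates compared (adjusted p = 0.053 to 0.13, limma), with all probe sets tested (0.070) and with array weights (0.072). Without both E15.5 replicates numbered 1, Myl4, Tnnt2 and Tnnc1 passed as well, giving 5 higher and 1 lower, where 12.2% and 14% of all probe sets were called. In A/J, none was higher at PN0 than at E20.5 (1, Actc1, at an unadjusted p under 0.05) and Ryr2 alone was lower in limma, where 12% and 8.09% of all probe sets were called. Actc1 and Tnnt2 passed in A/J without both E15.5 replicates numbered 1, at 0.54 ± 0.14 and 0.49 ± 0.14 (SE; adjusted p = 0.0075 and 0.012, limma), making 2 higher and 1 lower, where 11.7% and 7.82% were called. Of 5 ventricular genes, 2 were higher and 1 lower across birth in B6, and none was higher and 1 lower in A/J. The shares of all probe sets are those given above, and the median changes of the list were 0.13 and 0.037. The lower gene was Myh7, the slow myosin heavy chain, with PN0 minus E18.5 of -0.87 ± 0.13 in B6 and PN0 minus E20.5 of -0.87 ± 0.13 in A/J (SE; adjusted p = 6.1e-06 and 1.0e-05, limma).

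Between the strains, none of the 10 genes was called at any of the 5 shared ages by limma. Of all probe sets 2.46% were called at E15.5, and 8.09% and 10.9% on the next 2 days. At PN0 it was 19.9% and on E18.5, the last shared prenatal day, 31.8%. At an unadjusted p under 0.05 only Ryr2 passed, at E16.5 and E17.5, where B6 was higher by 0.30 ± 0.10 each time (SE; adjusted p = 0.065 and 0.059, limma). The spread that limma shared over all groups held the E15.5 replicates numbered 1, and the residual SD of Myl7 was 0.51 with them and 0.20 without them. At E17.5, 2 genes (Nppa and Ryr2) were higher and 5 (Myh6, Myl7, Myl4, Tnni3 and Actn2) lower in B6 without overlap of replicates, where 13.2% and 15.4% of all probe sets were so. At PN0, 6 of the 10 genes had B6 replicates that all lay below the A/J replicates, without overlap of replicates, where 19.8% of all probe sets were so. Myl4 read 9.68, 9.50 and 9.69 in B6 and 10.18, 10.44 and 10.26 in A/J at PN0, a difference of -0.67 ± 0.38 (SE; adjusted p = 0.23, limma). Actn2 read 8.04, 7.91 and 8.20 in B6 and 8.62, 8.55 and 8.34 in A/J at PN0. Without both E15.5 replicates numbered 1, no gene was higher and 6 were lower in B6 at PN0 (Myh6, Myl7, Myl4, Tnnt2, Tnnc1 and Actn2), where 6.38% and 12.6% of all probe sets were called. Myl4 was then -0.67 ± 0.16 and Actn2 -0.45 ± 0.11 (SE; adjusted p = 0.0030 and 0.0035, limma). Actc1 differed by -0.03 in both fits at PN0. In the same fit Ryr2 was higher in B6 at E16.5 (0.30 ± 0.079), E17.5 (0.30 ± 0.079) and E18.5 (0.21 ± 0.079; SE; adjusted p = 0.019, 0.015 and 0.042, limma), where 3.04%, 3.99% and 3.93% of all probe sets were. Myh6 was lower in B6 at E17.5, and Myl4, Tnni3 and Actn2 were lower in B6 at E18.5, where 6.27% and 27.2% of all probe sets were. At E16.5 none of the 10 was lower in B6 in limma (0 also at an unadjusted p under 0.05 with all replicates), where 4.24% of all probe sets were. None of these was called in the main fit, whose shared spread held the 2 E15.5 replicates. Ryr2 also passed with them kept, at E16.5 and E17.5 with array weights (adjusted p = 0.022 and 0.033, limma). At E18.5 it did so with quantile normalization (adjusted p = 0.016, limma). With only the groups compared, Myh6 passed at E17.5, and Myl7, Myl4, Tnnt2, Tnnc1 and Actn2 at PN0.

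Nppa, the precursor of atrial natriuretic peptide, did not follow the other 9 genes. Of the 36 replicates, 8 held Nppa at 2-fold or more above the mean of the others of that group. Its values in B6 were 7.03, 6.02 and 5.74 at E15.5, 6.15, 6.60 and 8.89 at E18.5 and 7.82, 6.25 and 6.27 at PN0. In A/J it read 10.82, 5.6 and 6.0 at E15.5, 6.19, 5.87 and 7.07 at E18.5, 5.65, 5.90 and 7.87 at E19.5, 5.67, 5.66 and 7.76 at E20.5 and 5.80, 6.93 and 5.84 at PN0. From E18.5 on, single replicates thus stood high while the other 2 of the group stayed low, and the high ones numbered 6. PN0 minus E15.5 was 0.52 ± 0.83 in B6 and -1.28 ± 0.83 in A/J (SE; adjusted p = 0.65 and 0.21, limma). The A/J value rested on single replicates: it was 0.39 ± 0.64 without both E15.5 replicates numbered 1 (SE; adjusted p = 0.67, limma), and -2.22 without A/J E15.5 replicate 2, where it passed (adjusted p = 0.034, limma). The residual SD of Nppa was 1.14, larger than that of all but 0.00918% of probe sets.

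In the 6 late replicates with high Nppa, no other member was in 2-fold excess. Of all probe sets, 0.0229% to 0.0872% were in such excess in these replicates (0.0229% in B6 E18.5 replicate 3, 0.0367% in B6 PN0 replicate 1, 0.0551% in A/J E18.5 replicate 3, 0.0872% in A/J E19.5 replicate 3, 0.0321% in A/J E20.5 replicate 3 and 0.0826% in A/J PN0 replicate 2). In B6 E18.5 replicate 3, Nppa was 2.52 above the mean of the other replicates, and the other 9 genes lay between -0.09 and 0.41. In A/J E19.5 replicate 3 the Nppa excess was 2.10 and the other 9 lay between -0.22 and 0.19. In A/J E20.5 replicate 3 it was 2.10 and the other 9 lay between -0.085 and 0.26. Bmp10, an atrial growth factor, lay between -0.26 and 0.055 and Sln, the atrial regulator of the calcium pump, between -0.35 and 0.24 in these 6 replicates.

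At E15.5, replicate 1 of both strains was high in most of the genes at once. In B6 E15.5 replicate 1, 6 of the 10 genes were 2-fold or more above the mean of replicates 2 and 3, where 0.184% of all probe sets were. In A/J E15.5 replicate 1, 8 of the 10 were, where 0.156% of all probe sets were. The excess in B6 ran from 0.28 for Ryr2 to 1.75 for Myl7 with a median of 1.13. The excess in A/J ran from 0.52 for Ryr2 to 5.02 for Nppa with a median of 2.0, and Nppa had the largest excess of the 21789 probe sets. Below the 2-fold line were Actc1, Tnni3, Ryr2 and Actn2 in B6, and Tnni3 and Ryr2 in A/J. Of the 360 pairs of a gene and a replicate, 20 were in excess, 14 of them in these 2 replicates and 6 of them Nppa alone in the late replicates.

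**Figure D3:**
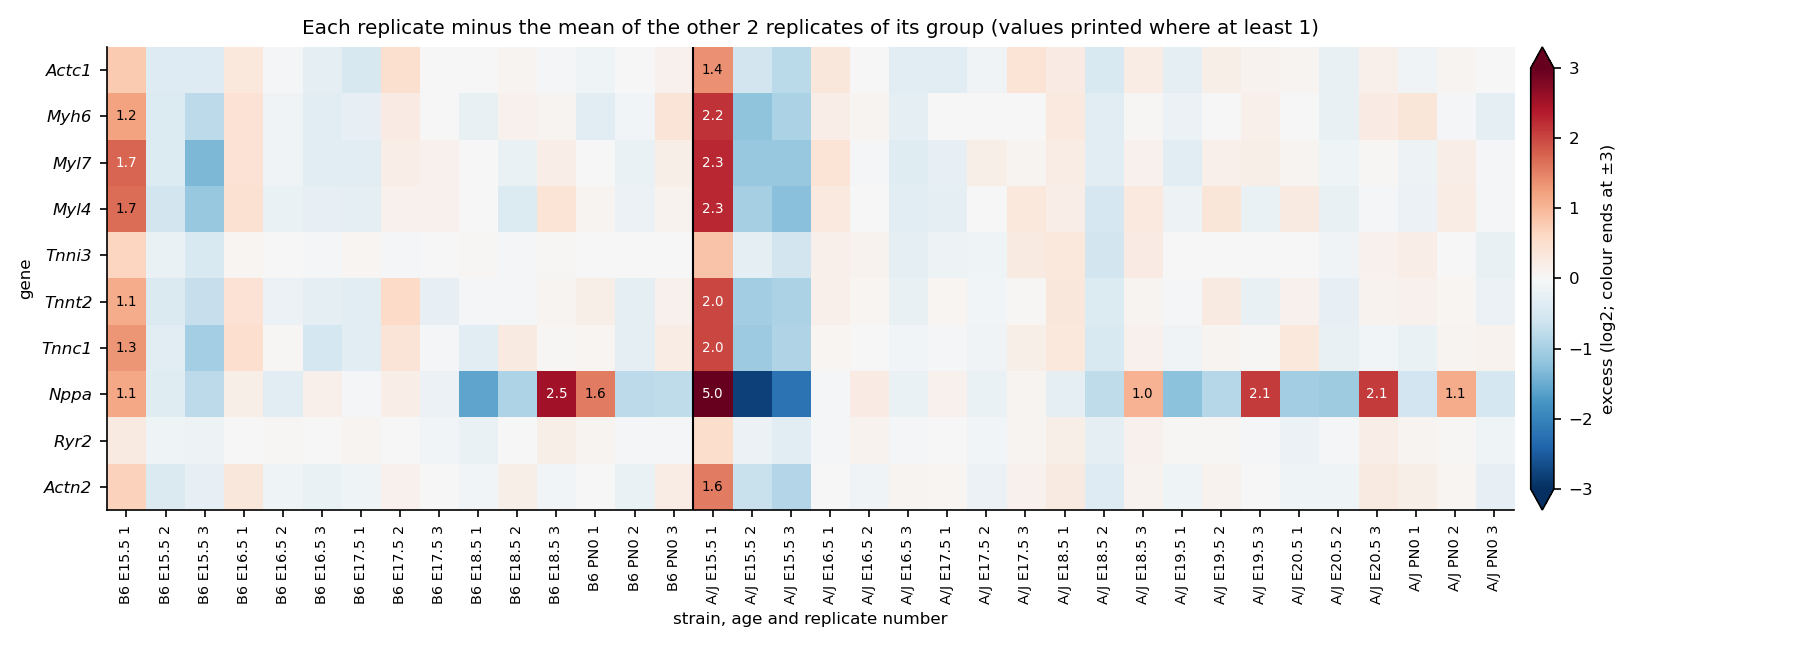
Excess of each replicate over the mean of the other replicates of its group (colour, log2, ends at ±3), for the 10 genes (rows) in 15 B6 replicates (left of the black line) and 21 A/J replicates (right), with values of at least 1 printed. Replicate 1 of E15.5 is red in most rows in both strains, and the other printed values are all of Nppa.

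Over the 36 replicates, each gene's deviation from its group mean correlated with the mean deviation of the other 9 at r = 0.73 for Nppa to 0.95 for Tnnt2, and without the 2 E15.5 replicates numbered 1 at 0.29 for Nppa to 0.72 for Myl7. The genes with the most similar deviations over the 36 replicates were mostly other cardiac muscle genes. Taking the mean deviation of the 10 genes from their group means as the pattern, Casq2, which stores calcium in the sarcoplasmic reticulum, was most like it (Pearson r = 0.96). Csrp3 (0.90), Ankrd1 (0.90), Myom1 (0.89), Tbx20 (0.88), Tnni1 (0.88), Pam (0.88), Smyd1 (0.87), Pln (0.87) and Mybpc3 (0.86) followed. With the 2 E15.5 replicates numbered 1 dropped from the correlation, r ranged from 0.72 for Tnni1 to 0.90 for Casq2. The group means still held these 2 replicates here, unlike in the range for the 10 genes above. The other E15.5 replicates thus kept deviations set by them, and these r do not show likeness apart from them. The correlations share those replicates, so they describe this set of arrays and carry no p. Casq2 and Ankrd1, a Z disc stress protein, were also higher at PN0 than at E15.5, Casq2 by 1.21 ± 0.26 in B6 and 1.32 ± 0.26 in A/J, and Ankrd1 by 2.61 ± 0.44 in B6 and 2.27 ± 0.44 in A/J (SE; called by limma). Csrp3, Tbx20 and Pln were called higher in each strain too. Tnni1 passed in neither strain, at 0.43 ± 0.21 in B6 and 0.33 ± 0.21 in A/J (SE; adjusted p = 0.094 and 0.22, limma). Nor did Smyd1, at 0.29 ± 0.18 and 0.20 ± 0.18 (SE; adjusted p = 0.18 and 0.38, limma).

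In E15.5 replicate 1 the 2-fold excess took in 3 atrial genes, all among the 10, and no other atrial or ventricular gene listed. Of 8 atrial genes, 3 were in 2-fold excess in B6 E15.5 replicate 1 and 3 in A/J E15.5 replicate 1, and the 3 were Myl7, Myl4 and Nppa, all among the 10 genes. At 1.5-fold, 5 were in A/J. Outside the 10 genes, Kcnj5 had an excess of 0.26 in B6 and 0.885 in A/J. Bmp10 had -0.355 in B6 and 0.87 in A/J, and Sln 0.245 and 0.13. Of 5 ventricular genes, none was in 2-fold excess in either. Ventricular Myl2, the ventricular regulatory light chain, lay between 4.76 and 5.39 in all 36 replicates, and its excess was 0.06 in B6 E15.5 replicate 1 and 0.035 in A/J. Myl3 had an excess of 0.025 in B6 and 0.49 in A/J, and Myh7 0.56 in B6 and 0.19 in A/J. Myh7 was itself age dependent, with 8.16, 8.32 and 8.10 at E18.5 in B6, against 6.84, 6.35 and 6.22 at E15.5 in B6. Between ages, Myl3 rose by 0.43 ± 0.11 in B6 and 0.54 ± 0.11 in A/J at PN0 over E15.5, and Myh7 by 0.86 ± 0.13 and 1.32 ± 0.13 (SE; called by limma). Myl2 changed by 0.12 ± 0.091 in B6 (adjusted p = 0.31, limma) and rose by 0.29 ± 0.091 in A/J (adjusted p = 0.0078, limma). In this list 3 of 5 rose in B6 and 4 of 5 in A/J, with medians of 0.43 and 0.53, and in the atrial list 3 of 8 and 2 of 8, with medians of 0.29 and 0.15, where 24.4% and 25.2% of all probe sets rose. Of the atrial genes outside the 10, Kcnj3, Kcnj5, Kcna5 and Bmp10 passed in neither strain, and Sln rose in B6 by 0.43 ± 0.16 (adjusted p = 0.026, limma).

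Genes of other tissues moved with the excess in part. Of 8 liver genes, 7 were in 2-fold excess in B6 E15.5 replicate 1 and 7 in A/J E15.5 replicate 1. Alb, albumin, read 11.49 there in B6, against 5.59 and 5.47 in replicates 2 and 3, and 9.89 in A/J, against 5.65 and 6.02. Liver genes were also high where no cardiac gene was in 2-fold excess. In B6 E16.5 replicate 1 Alb read 10.52 and 6 of 8 liver genes were in excess, with no cardiac gene past 2-fold and their median excess at 0.39. In A/J E19.5 replicate 2 Alb read 9.67 and the median excess of the cardiac genes was 0.09. The mean of the 9 genes without Nppa was still the highest of its group in each of these replicates. It was 7.93 in the B6 replicate, against 7.66 and 7.54, and 9.22 in the A/J replicate, against 9.05 and 9.13. A/J E18.5 replicate 2 went the other way, with the highest Alb of its group (7.57) and a median excess of the cardiac genes of -0.43. Of 22 skeletal muscle genes, none was in excess in B6 E15.5 replicate 1 and 1, Casq1, in A/J. None of 10 smooth muscle genes and none of 8 genes of epicardium and mesothelium was in excess in either. The median excess of the lung list was -0.12 in B6 and -0.415 in A/J. The part of these in the excess was not tested.

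**Figure D4:**
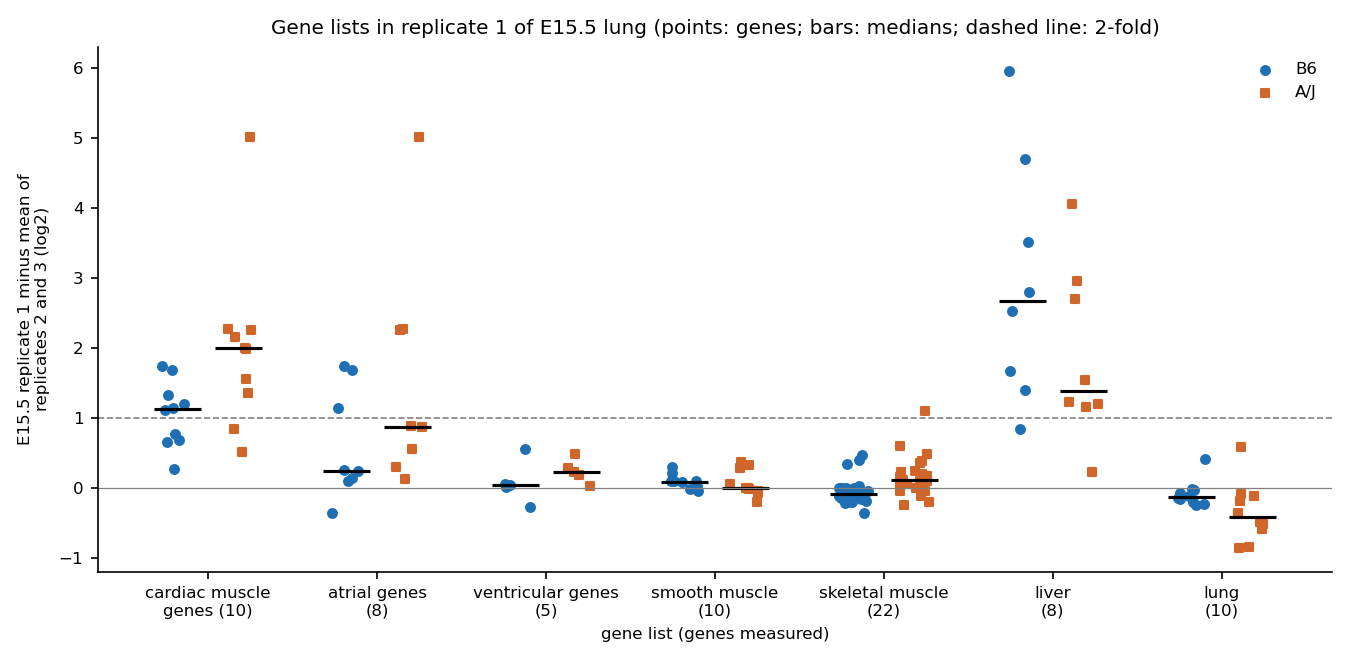
Replicate 1 of E15.5 minus the mean of replicates 2 and 3 (y axis, log2) for the genes of 7 lists (x axis, genes measured in brackets) in B6 (blue circles) and A/J (orange squares), with the median as a black bar and 2-fold dashed. The cardiac muscle and liver lists have medians above 1, and the other lists have medians below 1.

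Lists of related genes, fitted in the same model, are given by their counts at PN0 against E15.5, where 24.4% of all probe sets were higher and 26.6% lower in B6, and 25.2% and 25.8% in A/J. Of 20 other sarcomere and Z disc genes, 12 were higher and 1 lower at PN0 than at E15.5 in B6, and 9 and 1 in A/J, with median changes of 0.33 and 0.29. These counts were 13 and 1 in B6 and 15 and 1 in A/J without both E15.5 replicates numbered 1. Of 21 genes of cardiac calcium handling, channels and metabolism, 8 were higher in B6 and 13 in A/J, and none was lower, with medians of 0.28 and 0.43, and without those replicates 11 and 15 were higher. Of 13 cardiac transcription factors, 2 were higher and 4 lower in each strain, Tbx20 among the higher and Myocd, a coactivator of smooth and cardiac muscle genes, among the lower. Of 22 skeletal muscle genes, none was higher and 1 lower in B6, and 1, Acta1, was higher and none lower in A/J. Smooth muscle genes went both ways, with 2 higher and 4 lower of 10 in B6 and 4 higher and 3 lower in A/J. Lists of other cell types were higher at PN0 as well. Of 8 genes of epicardium and mesothelium, 5 were higher and 1 lower in B6, and 5 and 0 in A/J, with medians of 0.60 and 1.08, and Msln, a surface protein of mesothelium, rose by 4.12 ± 0.16 in B6 and 4.43 ± 0.16 in A/J (SE; adjusted p = 1.2e-19 and 2.7e-20, limma). All 10 genes of the lung list were higher in each strain, with medians of 2.13 in B6 and 2.51 in A/J, and 9 without both E15.5 replicates numbered 1. The part of these in the rise of the cardiac genes was not tested.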

How the data were processed

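RNA of whole right lung was hybridized to Affymetrix Mouse Gene 1.0 ST arrays. The authors deposited log2 values, normalized by RMA in Affymetrix Expression Console 1.1 per the labels, for 35556 probe sets on 37 arrays. RMA ties all arrays to 1 distribution and compresses low values. The genome build behind the probe sets is not given in the sources used here. Arrays 2 and 2b of B6 E18.5 were averaged, giving 36 replicates in 12 groups. Whether 2b belongs to replicate 2 is not established, since its correlation with arrays 1, 2 and 3 was 0.993 each over the probe sets tested.

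The platform annotation gave 1 symbol to 21789 probe sets, several to 1621 and none to 12146. Probe sets with 1 symbol were tested in limma 3.58.1 (R 4.3.3), with a mean per group, empirical Bayes moderation and Benjamini-Hochberg adjustment. Age was tested as PN0 minus E15.5, as a slope over prenatal days and by an F test, strains as B6 minus A/J at each age. Excess is a replicate minus the mean of the others of its group. A limma fit of PN0 minus E15.5 in A/J was tried on simulated data, without array 2b. The slopes, the F test, the excess and the correlations were not tried in this way. Named are the 10 genes, up to 4 genes per list with the largest excess in A/J E15.5 replicate 1 or the largest change, and the 10 genes most like the set; other named genes were chosen after their values were seen. Members and lists were chosen with earlier results of these data known. Alternatives were other scalings, probe set filters, variance models, array weights, thresholds, treatments of array 2b and each replicate left out. Each litter pool is a replicate, and the number of arrays limits the precision.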

Additional observations from a re-analysis of the deposited data

How the results depend on the processing

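No called result changed direction under the alternatives run. Of 7006 values compared, 7000 were for single genes. Of the 7006, 6890 kept their side of the threshold, 33 lost it and 83 gained it. Of the 6890, 86 that passed in neither fit changed sign. Without both E15.5 replicates numbered 1, such changes took Nppa to 0.39 for PN0 minus E15.5 in A/J (reported -1.28), to 0.17 per day for the A/J slope (-0.07) and to 0.08 for B6 minus A/J at E15.5 (-1.21), and Actc1 to 0.045 for the last (-0.15). Counts of called genes kept within 1.5 times of the reported count except in those given here. PN0 minus E20.5 in A/J had 3 genes (reported 1) with only the groups of the comparison, and 3 without both E15.5 replicates numbered 1. PN0 minus E18.5 in B6 (reported 3) had 6 with only its groups, 1 at an adjusted p under 0.01, and 6 without both E15.5 replicates numbered 1. B6 minus A/J, reported at 0 at each age, had at E16.5 and at E17.5 1 without dim probe sets, 1 with array weights and 2 with only its groups, and without both E15.5 replicates numbered 1 it had 1 at E16.5 and 2 at E17.5. At E18.5 it had 1 with arrays centred on their medians, 1 with quantile normalization and 4 without both E15.5 replicates numbered 1, and at PN0 5 with only its groups and 6 without both. The atrial genes in excess were 5 at 1.5-fold (reported 3). The cause was not tested.

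Leaving out 1 replicate at a time gave 6 to 8 genes for the B6 change over time, 7 to 9 for A/J, 7 to 9 for PN0 minus E15.5 in B6, 8 to 9 in A/J, 3 to 9 for the prenatal slope in B6, 9 in A/J in every case, 1 to 4 for PN0 minus E18.5 in B6, 1 to 2 for PN0 minus E20.5 in A/J, 0 to 1 for B6 minus A/J at all shared ages but E15.5, and 0 at E15.5 and for the slope difference. The single call at E16.5 came without A/J E15.5 replicate 1 or replicate 3, at E17.5 without those or A/J E18.5 replicate 2, at E18.5 without A/J E15.5 replicate 1 or A/J E18.5 replicate 2, and at PN0 without A/J E15.5 replicate 1. The slope count of 3 came without B6 E15.5 replicate 3, and the count of 1 for PN0 minus E18.5 without B6 E18.5 replicate 3, B6 PN0 replicate 2 or B6 PN0 replicate 3. PN0 minus E20.5 had 2 without A/J E15.5 replicate 1.

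Replicate numbers did not pair the samples: deviations of same-numbered replicates correlated with a median of -0.015 (198 pairs, -0.41 to 0.39), against 0.0042 for different numbers (396 pairs, -0.43 to 0.46). With the replicate number as a block, the replicate block counts were 9 and 9 for PN0 minus E15.5 in B6 and A/J, 6 and 7 for the change over time, 7 and 9 for the slopes, 3 for PN0 minus E18.5 in B6, 1 for PN0 minus E20.5 in A/J and 0 between the strains, all as reported.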
